A study of Mus musculus with 7 samples.

Results

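The genes described here carry glucose into the cell, split it to pyruvate, interconvert pyruvate and lactate, move lactate across the membrane and gate the entry of pyruvate into mitochondria, together with Hif1a, the oxygen-regulated transcription factor subunit that controls many of them. They are 34 genes of the 38579 gene entries in a deposited table of mouse fetal mammary expression, taken by gene symbol. All 34 were found, and for Gapdh, the only symbol that occurs repeatedly, the entry with the highest mean was used. The study profiled cells sorted from mammary rudiments of CD1 mouse embryos at E17.5 (a day of gestation) by RNA sequencing, to examine a pair of sorting strategies. It holds 7 libraries of uncultured cells in 4 sort groups.

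In the Sox10 strategy, 2 libraries hold cells positive for the Sox10-Venus reporter and for the surface protein EpCAM, called fetal mammary stem cells (fMaSC). Their column headers also give them as lineage-negative, that is, depleted of the cells marked by the lineage antibodies. In the same strategy 1 library holds EpCAM-negative stroma, whose title also gives it as Sox10-negative and lineage-negative. In the CD24 strategy, 2 libraries hold CD24+CD49f+ lineage-negative fMaSC and 2 hold CD24low lineage-negative stroma, titled as CD24 low or negative. The labels call the libraries biological replicates without naming the litters or sorts they came from, so p-values measure the spread between these libraries, and they describe no Sox10-Venus allele. The deposited unit is FPKM, fragments scaled to transcript length and to the number mapped, so levels can be set side by side between genes. No counts accompany it. The labels state a minimum depth in reads per sample, and 12790 to 13639 genes per library reached 1 FPKM. Summed FPKM ran from 424984 to 752737 in the fMaSC libraries and from 378952 to 547649 in the stroma libraries. Folds below are as deposited unless another scaling is named. Only some are also given after scaling all columns to the same sum, which can change the others too. Mitochondrial transcripts took 9.94% to 19.0% of the sum in fMaSC and 6.23% to 17.7% in stroma.

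The 8 epithelial markers, Epcam and Krt8 among them, summed to 805 to 949 FPKM in Sox10+EpCAM+ fMaSC, 372 to 573 in CD24+CD49f+ fMaSC, 7.39 in EpCAM-negative stroma and 2.77 to 3.71 in CD24low stroma. The 8 fibroblast markers summed to 47.1 to 76.3 FPKM in Sox10+EpCAM+ fMaSC, 2226 to 3457 in CD24+CD49f+ fMaSC, 6444 in EpCAM-negative stroma and 7224 to 7605 in CD24low stroma. The fMaSC libraries thus led in epithelial and the stroma libraries in fibroblast markers. The CD24+CD49f+ fMaSC libraries also carried fibroblast transcripts at levels between the other fMaSC and the stroma. They held 354 to 836 FPKM of adipocyte markers, against 14.5 to 21.5 in Sox10+EpCAM+ fMaSC. Their erythroid markers summed to 731 to 6870 FPKM, against 85.3 to 151, although both fMaSC groups are given as lineage-negative. Of the 7 erythroid and 8 adipocyte markers none was at 0 in both libraries of either fMaSC group. The part of these transcripts in any difference below was not tested.

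Glycolysis turns glucose into pyruvate in the cytosol, and several of its steps can be run by alternative isoenzymes that differ in regulation, in kinetics and in the tissues that use them. Hexokinase, phosphofructokinase and pyruvate kinase catalyse its strongly regulated steps. Lactate dehydrogenase turns the reduced cofactor back into its oxidized form, so that the pathway can go on without oxygen. Hypoxia-inducible factor, of which Hif1a encodes the regulated subunit, is known to raise transcription of most of these genes, and proliferating embryonic and epithelial cells commonly run glycolysis at high rates.

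With near-identical copies left aside, the most abundant members were the same few in every sort group. In Sox10+EpCAM+ fMaSC the highest group means were those of Ldha (365 FPKM), Pkm (349.8 FPKM), Aldoa (322 FPKM) and Tpi1 (261 FPKM). In CD24low stroma Aldoa (249 FPKM), Ldha (193 FPKM) and Tpi1 (151 FPKM) led, and Pkm followed at 61.7 FPKM. At the other end Pgam2, the muscle phosphoglycerate mutase, stayed between 0.485 and 1.18 FPKM over all libraries and was the only member that missed the filter of 1 FPKM in at least 2 libraries. Together the 34 members summed to 2241 and 2398 FPKM in Sox10+EpCAM+ fMaSC, 1619 and 1456 in CD24+CD49f+ fMaSC, 1049 in EpCAM-negative stroma and 1110.25 and 1133 in CD24low stroma. These sums did not overlap between fMaSC and stroma. As a share of all FPKM in the library they did overlap: 0.303% and 0.395% in Sox10+EpCAM+ fMaSC, 0.215% and 0.343% in CD24+CD49f+ fMaSC, 0.277% in EpCAM-negative stroma and 0.286% and 0.207% in CD24low stroma.

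**Figure D1:**
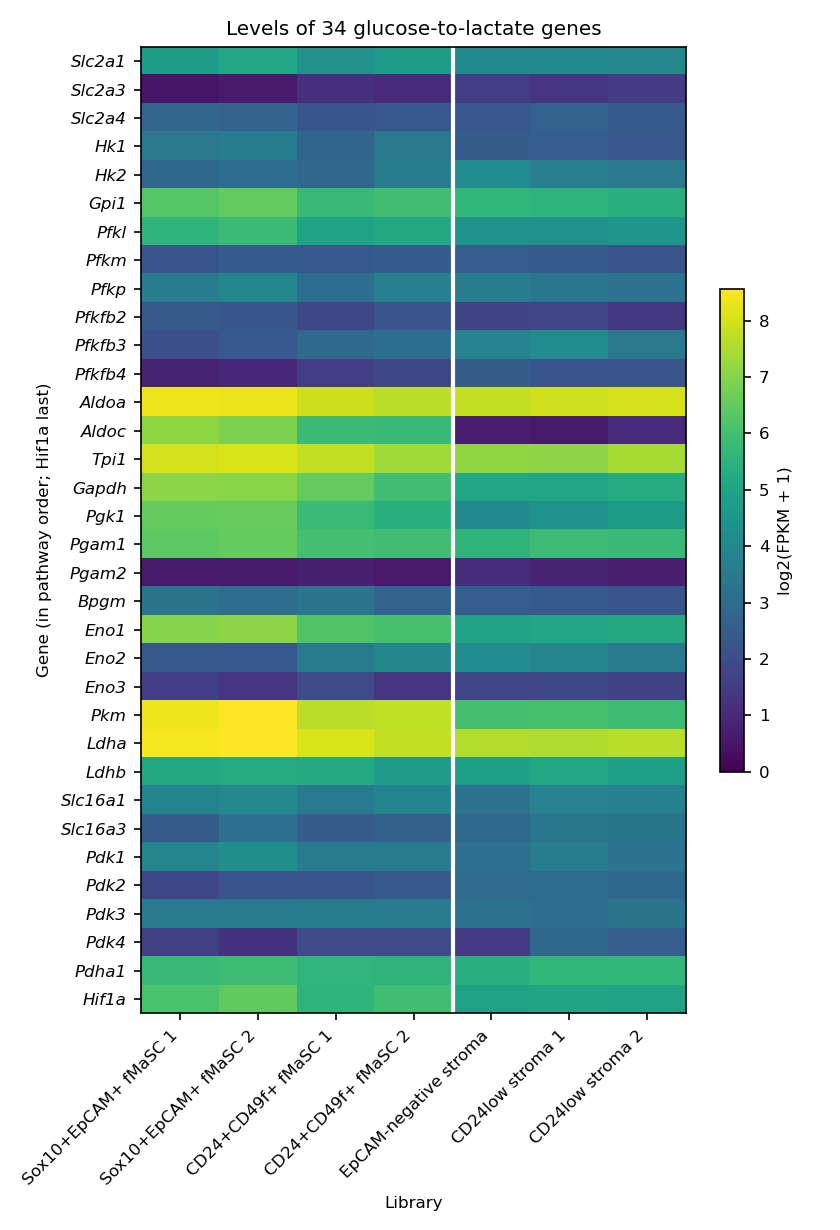
Levels of the 34 genes as log2(FPKM + 1), with 1 column per library (fMaSC left of the white line, stroma right of it) and 1 line per gene. Aldoc changes most across the line, with 54.3 to 136 FPKM in the 4 fMaSC libraries and 0.505 to 1.09 FPKM in the 3 stroma libraries, while Aldoa, Tpi1 and Ldha are bright in all 7.

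Set against all 3 stroma libraries, with sorting strategy as a term, the 4 fMaSC libraries had higher levels of 10 members and lower levels of 3 among the 33 tested (limma on log2(FPKM + 1), p-values adjusted over 14418 genes, threshold 0.05). Over all genes tested, 25.1% were called, 15.6% higher and 9.5% lower. Of these calls 62.2% were higher, against 49.4% with columns scaled to the same sum, 44.7% with quantile normalization and 45% with median-ratio scaling. The genes called higher were Aldoc, Pkm, Pgk1, Eno1, Gapdh, Hif1a, Pfkl, Hk1, Bpgm and Slc2a1, and those called lower were Pdk2, Pfkfb4 and Pfkfb3. The median log2 fold of the members was 0.36, beside 0.12 for all genes. With columns scaled to the same sum the median of all genes moved to -0.32 and that of the members to -0.10. Aldoc, Pkm, Pgk1, Eno1 and Gapdh then stayed called (5 of 33, beside 11.1% of all genes). The other 8 called members kept their sign without passing the threshold. Their scaled log2 folds were 0.52 for Hif1a, 0.41 for Pfkl, 0.35 for Hk1, 0.22 for Bpgm and 0.12 for Slc2a1. For the lower genes they were -1.29 for Pdk2, -1.57 for Pfkfb4 and -1.61 for Pfkfb3. Of the 20 members not called, 9 changed sign (Pgam1, Pdk1, Pdk3, Slc16a1, Pdha1, Pfkp, Aldoa, Ldhb and Slc2a4), so that the signs of their folds as deposited, given below for some, depend on the scaling. As deposited, 15 members were higher in all 4 fMaSC libraries than in any stroma library, beside 23.3% of all genes, and 4 were lower, beside 13.7%. With the same sum these were 5 members, beside 9.59%, and 5 members, beside 13.9%. The 5 higher were Aldoc, Eno1, Gapdh, Pgk1 and Pkm and the 5 lower Eno3, Pdk2, Pfkfb4, Slc16a3 and Slc2a3, and for all other members a statement below that libraries did not overlap holds for the columns as deposited. Without the EpCAM-negative library 4 members remained called, and without Sox10+EpCAM+ replicate 1, Sox10+EpCAM+ replicate 2 or CD24low replicate 1 the count was 7, 8 and 7. In these bulk libraries, fewer cells of a type and less RNA per cell cannot be told apart.

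**Figure D2:**
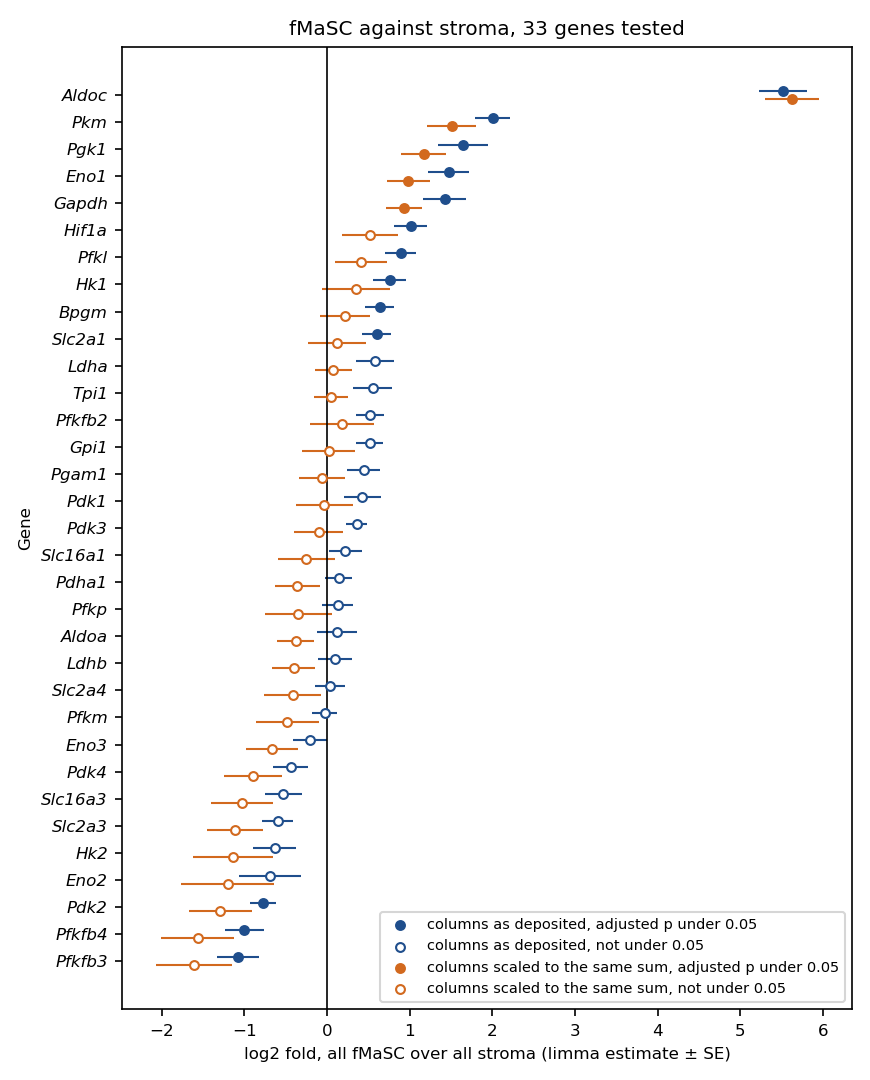
log2 fold of all fMaSC over all stroma for the 33 genes tested (limma estimate with SE as bars), with columns as deposited (blue) and scaled to the same sum (orange); filled points have an adjusted p under 0.05. Aldoc stands at 5.52 and 5.62 under the 2 scalings, whereas most other genes shift to the left after scaling.

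Aldolase, which splits fructose bisphosphate into a pair of triose phosphates, showed a minor isoenzyme that was far higher in fMaSC than in stroma. Aldoc, the isoenzyme known best from brain, lies on chromosome 11 at 78322968 to 78327781 (GRCm38, ENSMUSG00000017390). It had 136 and 117 FPKM in Sox10+EpCAM+ fMaSC, 56.7 and 54.3 in CD24+CD49f+ fMaSC, 0.592 in EpCAM-negative stroma and 0.505 and 1.09 in CD24low stroma. The fMaSC and stroma libraries were far from overlapping. The log2 fold was 5.52 ± 0.29 (SE, adjusted p = 0.000124), and Aldoc stayed called under all 15 alternatives tried, with folds of 4.99 to 6.62. Aldoa, the widespread isoenzyme, had 324 and 319.9 FPKM in Sox10+EpCAM+ fMaSC, 243 and 202 in CD24+CD49f+ fMaSC, 217 in EpCAM-negative stroma and 243 and 255 in CD24low stroma. Its libraries overlapped and it was not called (log2 fold 0.12 ± 0.24, adjusted p = 0.717, with a fold of -0.38 after scaling to the same sum). Aldoc therefore made up 24.1% ± 4.9 of aldolase FPKM in fMaSC (SD, n = 4) and 0.301% ± 0.11 in stroma (SD, n = 3). These shares are unaffected by how a column is scaled. Aldoc shares no exon bases with another gene in GENCODE vM21, and no near-identical copy of it was found.

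Pyruvate kinase, the last step of the pathway, was also highest in Sox10+EpCAM+ fMaSC and lowest in stroma. Pkm (chromosome 9, 59656368 to 59679375) had 321 and 378 FPKM in Sox10+EpCAM+ fMaSC, 202 and 214 in CD24+CD49f+ fMaSC, 65.2 in EpCAM-negative stroma and 66.4 and 57.0 in CD24low stroma. All 4 fMaSC libraries exceeded all 3 stroma libraries, also after scaling to the same sum, with a lowest fMaSC value of 268 and a highest stroma value of 172. The log2 fold was 2.00 ± 0.22 (SE, adjusted p = 0.00132), kept under all 15 alternatives. The table gives 1 value per gene, so the splice forms of Pkm that distinguish embryonic from adult muscle enzyme are not resolved. Pklr, the liver and red cell pyruvate kinase gene, reached 0.289 FPKM at most. In 767 exon bases Pkm overlaps Gm49759 on the same strand.

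Between aldolase and pyruvate kinase, Gapdh, Pgk1, Eno1 and Bpgm were called higher in fMaSC, and Tpi1 and Pgam1 were not. Triose phosphate isomerase, Tpi1, had 251 and 271 FPKM in Sox10+EpCAM+ fMaSC, 219.6 and 160 in CD24+CD49f+ fMaSC, 139 in EpCAM-negative stroma and 135 and 167 in CD24low stroma, which overlapped and was not called. Gapdh, the dehydrogenase that makes the first energy-rich intermediate, had 134 and 130.1 FPKM in Sox10+EpCAM+ fMaSC, 90.5 and 60.4 in CD24+CD49f+ fMaSC, 32.6 in EpCAM-negative stroma and 32.3 and 38.5 in CD24low stroma. Pgk1, phosphoglycerate kinase, which makes the first ATP of the pathway, had 91.1 and 94.9 FPKM in Sox10+EpCAM+ fMaSC, 56.5 and 42.1 in CD24+CD49f+ fMaSC, 16.1 in EpCAM-negative stroma and 20.0 and 24.6 in CD24low stroma. For Gapdh and for Pgk1 no fMaSC library came as low as any stroma library. Their log2 folds were 1.42 ± 0.26 for Gapdh (adjusted p = 0.0103) and 1.64 ± 0.30 for Pgk1 (adjusted p = 0.0108), and the call of Gapdh was lost without the EpCAM-negative library. Pgam1, the general phosphoglycerate mutase, had 84.8 and 92.5 FPKM in Sox10+EpCAM+ fMaSC, 62.6 and 60.3 in CD24+CD49f+ fMaSC, 46.3 in EpCAM-negative stroma and 58.1 and 54.7 in CD24low stroma. As deposited it did not overlap between fMaSC and stroma but was not called (log2 fold 0.44 ± 0.20, adjusted p = 0.147), and with the same sum it overlapped and the fold was -0.06. Bpgm, which makes bisphosphoglycerate, the modulator of oxygen release in red cells, had 8.76 and 7.30 FPKM in Sox10+EpCAM+ fMaSC, 8.71 and 5.50 in CD24+CD49f+ fMaSC, 4.95 in EpCAM-negative stroma and 4.37 and 3.67 in CD24low stroma. Its log2 fold of 0.64 ± 0.18 passed the threshold (adjusted p = 0.0424) but was kept under 5 of 15 alternatives. Within CD24+CD49f+ fMaSC its higher value sat in replicate 1, the library with 1984 FPKM of Hba-a1 against 217 in replicate 2. The highest Bpgm value of all was in Sox10+EpCAM+ replicate 1. That group had 85.3 to 151 FPKM of erythroid markers, against 731 to 6870 in CD24+CD49f+ fMaSC. The part of red cell RNA in the level of Bpgm was not tested.

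Enolase repeated the pattern of a dominant and a minor form, with the minor forms taking a larger share in stroma. Eno1, the general isoenzyme, had 128 and 134 FPKM in Sox10+EpCAM+ fMaSC, 75.2 and 66.2 in CD24+CD49f+ fMaSC, 29.3 in EpCAM-negative stroma and 32.4 and 35.3 in CD24low stroma. The log2 fold was 1.47 ± 0.25 (SE, adjusted p = 0.00797), and no libraries overlapped. Eno2, known as the neuronal isoenzyme, had 4.29 and 4.13 FPKM in Sox10+EpCAM+ fMaSC, 10.2 and 14.5 in CD24+CD49f+ fMaSC, 16.6 in EpCAM-negative stroma and 14.1 and 10.2 in CD24low stroma. Sox10+EpCAM+ fMaSC stood below all the rest, whereas CD24+CD49f+ fMaSC lay within the stroma range. Eno3, the muscle isoenzyme, ranged from 1.44 to 2.98 FPKM in fMaSC and from 2.19 to 2.58 in stroma. By share, Eno2 held 3.20% and 2.96% of enolase FPKM in Sox10+EpCAM+ fMaSC, 11.5% and 17.6% in CD24+CD49f+ fMaSC, 34.3% in EpCAM-negative stroma and 28.6% and 21.3% in CD24low stroma.

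The levels of Eno1, Gapdh, Pgk1, Pgam1, Gpi1 and Ldhb are uncertain, because the table also lists near-identical copies of their transcripts, most of them annotated as processed pseudogenes, with Eno1b and 1 copy of Gapdh as protein-coding exceptions (87 copies with at least 95% identity over 400 bases, 80 of them of Gapdh). Eno1 held only 11.5% to 12.5% of the FPKM of itself plus its 2 copies over the 7 libraries, Gapdh 9.13% to 11.1% and Pgk1 13.5% to 15.0%. With the copies added to the gene, the pooled log2 folds were 1.48 for Eno1, 1.48 for Gapdh and 1.70 for Pgk1, all called. In that setting, chosen after seeing the data, the count of called members in the pooled comparison was again 13. Levels did move: with its copies Eno1 summed to 1024 and 1120.1 FPKM in Sox10+EpCAM+ fMaSC, 637 and 577 in CD24+CD49f+ fMaSC, 249 in EpCAM-negative stroma and 283 and 293 in CD24low stroma, above Ldha and Pkm in each of these libraries. With its copies Gapdh summed to 1241 and 1286 FPKM in Sox10+EpCAM+ fMaSC, 859 and 661 in CD24+CD49f+ fMaSC, 292 in EpCAM-negative stroma and 335 and 387 in CD24low stroma, higher still. Pgk1 summed to 629.9 and 649 FPKM in Sox10+EpCAM+ fMaSC, 376 and 312 in CD24+CD49f+ fMaSC, 115 in EpCAM-negative stroma and 137 and 164 in CD24low stroma, so that the order of abundance given above holds only without copies. The share of Eno2 was then 0.417% and 0.367% in Sox10+EpCAM+ fMaSC, 1.57% and 2.45% in CD24+CD49f+ fMaSC, 6.19% in EpCAM-negative stroma and 4.69% and 3.33% in CD24low stroma, in the same order and still not overlapping. With copies added, Pgam1 held 32.97% to 36.5% of its sum, Gpi1 45.1% to 51.3% and Ldhb 50.05% to 63.9%.

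At the entrance to the pathway, Slc2a1, the basal glucose transporter, had 25.8 and 33.03 FPKM in Sox10+EpCAM+ fMaSC, 19.0 and 24.9 in CD24+CD49f+ fMaSC, 15.7 in EpCAM-negative stroma and 16.2 and 15.5 in CD24low stroma. No libraries overlapped as deposited, and the log2 fold of 0.60 ± 0.18 passed the threshold narrowly (adjusted p = 0.0481) and under 3 of 15 alternatives. Slc2a3, the high-affinity transporter of neurons, had 0.414 and 0.547 FPKM in Sox10+EpCAM+ fMaSC, 1.23 and 1.04 in CD24+CD49f+ fMaSC, 1.99 in EpCAM-negative stroma and 1.49 and 1.85 in CD24low stroma. It was lower in every fMaSC library without being called (log2 fold -0.60 ± 0.19, adjusted p = 0.0564). Slc2a4, the insulin-responsive transporter of muscle and fat, ranged from 3.90 to 6.13 FPKM in fMaSC and from 4.04 to 5.51 in stroma, which overlapped. Slc2a1 took 81.4% ± 2.7 of the FPKM of these 3 transporters in fMaSC (SD, n = 4) and 71.2% ± 1.2 in stroma (SD, n = 3).

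Hexokinase, which traps glucose in the cell, switched its leading isoenzyme between sort groups. Hk1, the housekeeping form, had 9.56 and 10.99 FPKM in Sox10+EpCAM+ fMaSC, 5.70 and 9.43 in CD24+CD49f+ fMaSC, 4.78 in EpCAM-negative stroma and 4.93 and 3.99 in CD24low stroma. Hk2, the inducible form typical of insulin-sensitive and proliferating tissue, had 6.45 and 7.29 FPKM in Sox10+EpCAM+ fMaSC, 6.39 and 11.5 in CD24+CD49f+ fMaSC, 16.5 in EpCAM-negative stroma and 11.7 and 9.82 in CD24low stroma. Hk1 was called higher (log2 fold 0.76 ± 0.20, adjusted p = 0.0340), and Hk2 overlapped and was not called (log2 fold -0.63 ± 0.26, adjusted p = 0.114). The share of Hk1 in their sum was 59.7% and 60.1% in Sox10+EpCAM+ fMaSC, 47.1% and 45.01% in CD24+CD49f+ fMaSC, 22.4% in EpCAM-negative stroma and 29.7% and 28.9% in CD24low stroma. Hk1 thus led only in the Sox10+EpCAM+ libraries, and CD24+CD49f+ fMaSC lay between them and the stroma. Hk3 and Hkdc1 stayed at 0.296 FPKM or less. Gpi1, the isomerase of the next step, ranged from 53.6 to 89.7 FPKM in fMaSC and from 40.1 to 49.5 in stroma, not overlapping and not called (log2 fold 0.52 ± 0.17, adjusted p = 0.0645).

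Among phosphofructokinases, the committed step, the liver form Pfkl had 46.6 and 55.6 FPKM in Sox10+EpCAM+ fMaSC, 30.2 and 35.4 in CD24+CD49f+ fMaSC, 20.2 in EpCAM-negative stroma and 19.9 and 21.9 in CD24low stroma. The libraries did not overlap, and Pfkl was called higher (log2 fold 0.89 ± 0.19, adjusted p = 0.0180). Pfkm, the muscle form, ranged from 3.73 to 4.67 FPKM in fMaSC and from 3.69 to 4.92 in stroma, and Pfkp, the platelet form, from 7.54 to 14.3 FPKM in fMaSC and from 8.56 to 11.3 in stroma. Both overlapped. Pfkl therefore held 72.4% ± 3.6 of phosphofructokinase FPKM in fMaSC (SD, n = 4) and 59.5% ± 4.4 in stroma (SD, n = 3), with the nearest libraries at 67.4% in CD24+CD49f+ fMaSC replicate 2 and 64.1% in CD24low stroma replicate 2.

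The PFKFB enzymes make and remove the fructose bisphosphate that activates phosphofructokinase, a different molecule from the one that aldolase splits. Their genes included a pair that was lower in fMaSC. Pfkfb3, the form with the strongest kinase activity, had 3.25 and 4.12 FPKM in Sox10+EpCAM+ fMaSC, 6.83 and 7.57 in CD24+CD49f+ fMaSC, 13.0 in EpCAM-negative stroma and 16.6 and 9.63 in CD24low stroma. Pfkfb4 had 0.813 and 0.938 FPKM in Sox10+EpCAM+ fMaSC, 1.91 and 2.54 in CD24+CD49f+ fMaSC, 4.78 in EpCAM-negative stroma and 3.82 and 3.82 in CD24low stroma. As deposited both were lower in every fMaSC library and were called, with log2 folds of -1.08 ± 0.25 for Pfkfb3 (adjusted p = 0.0251) and -1.002 ± 0.24 for Pfkfb4 (adjusted p = 0.0246). Without the EpCAM-negative library, without either Sox10+EpCAM+ replicate or without CD24+CD49f+ replicate 1, neither call held. With the same sum Pfkfb3 overlapped between fMaSC and stroma and neither gene was called. Pfkfb2, the form known from heart, ranged from 2.64 to 4.28 FPKM in fMaSC and from 1.59 to 2.47 in stroma without being called. Its share of the 3 genes was 51.3% and 43.7% in Sox10+EpCAM+ fMaSC, 23.2% and 27.1% in CD24+CD49f+ fMaSC, 11.7% in EpCAM-negative stroma and 10.8% and 10.6% in CD24low stroma. Pfkfb2 shares 1262 exon bases with Gm29427 on the same strand, so part of its value may belong to that gene.

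At the lactate end, Ldha, the subunit favouring lactate formation, had 353 and 376 FPKM in Sox10+EpCAM+ fMaSC, 272 and 220.3 in CD24+CD49f+ fMaSC, 189.8 in EpCAM-negative stroma and 187 and 198 in CD24low stroma. The libraries did not overlap as deposited but did after scaling to the same sum, and Ldha was not called (log2 fold 0.58 ± 0.23, adjusted p = 0.101). Ldhb, the subunit typical of oxidative tissue, ranged from 23.2 to 37.9 FPKM in fMaSC and from 27.8 to 34.2 in stroma. Ldha made up 90.1% ± 1.3 of their sum in fMaSC (SD, n = 4) and 86.4% ± 1.6 in stroma (SD, n = 3), a difference that overlapped once the copy of Ldhb was added. Slc16a1, the widespread monocarboxylate carrier, had 13.5 and 15.3 FPKM in Sox10+EpCAM+ fMaSC, 10.7 and 13.5 in CD24+CD49f+ fMaSC, 8.49 in EpCAM-negative stroma and 13.0 and 12.7 in CD24low stroma. Slc16a3, the carrier of strongly glycolytic cells, had 4.33 and 7.83 FPKM in Sox10+EpCAM+ fMaSC, 4.65 and 5.24 in CD24+CD49f+ fMaSC, 6.63 in EpCAM-negative stroma and 9.27 and 9.16 in CD24low stroma. As deposited each of the carriers overlapped between fMaSC and stroma, whereas with the same sum Slc16a3 was lower in every fMaSC library. Neither of the carriers was called, yet their ratio did not overlap. Slc16a1 held 70.9% ± 4.0 of their sum in fMaSC (SD, n = 4) and 57.6% ± 1.2 in stroma (SD, n = 3).

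The pyruvate dehydrogenase kinases, which switch off the enzyme that carries pyruvate into mitochondrial oxidation, also differed in composition. Pdk1 had 14.0 and 18.1 FPKM in Sox10+EpCAM+ fMaSC, 10.8 and 10.3 in CD24+CD49f+ fMaSC, 7.79 in EpCAM-negative stroma and 11.3 and 8.65 in CD24low stroma, which overlapped. Pdk2 had 2.65 and 3.73 FPKM in Sox10+EpCAM+ fMaSC, 3.63 and 4.24 in CD24+CD49f+ fMaSC, 7.06 in EpCAM-negative stroma and 7.10 and 6.37 in CD24low stroma. Pdk2 was lower in each fMaSC library and was called (log2 fold -0.77 ± 0.16, adjusted p = 0.0157), though not without the EpCAM-negative library or without CD24low replicate 1. Pdk3 ranged from 10.3 to 11.4 FPKM in fMaSC and from 7.34 to 8.71 in stroma and was not called (log2 fold 0.36 ± 0.13, adjusted p = 0.0798), with a fold of -0.10 after scaling to the same sum. Pdk4, the kinase raised in fasting and fat oxidation, had 2.08 and 1.36 FPKM in Sox10+EpCAM+ fMaSC, 2.90 and 2.92 in CD24+CD49f+ fMaSC, 1.66 in EpCAM-negative stroma and 6.29 and 4.89 in CD24low stroma. The EpCAM-negative value for Pdk4 lay below both CD24low values and within the range of fMaSC. Their target subunit Pdha1 ranged from 46.8 to 57.8 FPKM in fMaSC and from 40.5 to 50.3 in stroma, overlapping. Hif1a had 67.8 and 87.6 FPKM in Sox10+EpCAM+ fMaSC, 46.8 and 60.6 in CD24+CD49f+ fMaSC, 29.6 in EpCAM-negative stroma and 30.8 and 30.2 in CD24low stroma. It was called higher (log2 fold 1.01 ± 0.20, adjusted p = 0.0136), though not after scaling to the same sum or without the EpCAM-negative library.

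Over the 10 isoenzyme families, 26 shares were computed, of which 10 were higher and 12 lower in all 4 fMaSC libraries than in all 3 stroma libraries, while 4 overlapped (those of Slc2a4, Pfkfb4, Pdk3 and Pdk4). Shares of a family add up to a fixed sum, so that in a family of a pair both shares tell of the same difference. In larger families a shift of 1 member also moves the shares of the others. No shares were computed for other gene families, so these counts have no background beside them. Of all single genes tested, 23.3% were higher and 13.7% lower in all 4 fMaSC libraries, as deposited. An exact two-sided permutation test of 4 against 3 libraries cannot give a p below 0.0571, which all 22 reached, and no share can therefore pass 0.05. Sox10+EpCAM+ fMaSC was the farther of the fMaSC groups from the stroma in the shares of Hk1, Pfkfb2, Aldoc, Eno2 and Pdk1. Leaving out each library but the single EpCAM-negative one in turn gave 22 or 23 shares without overlap, counting other isoenzymes into each family gave 22, and adding copies gave 20.

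**Figure D3:**
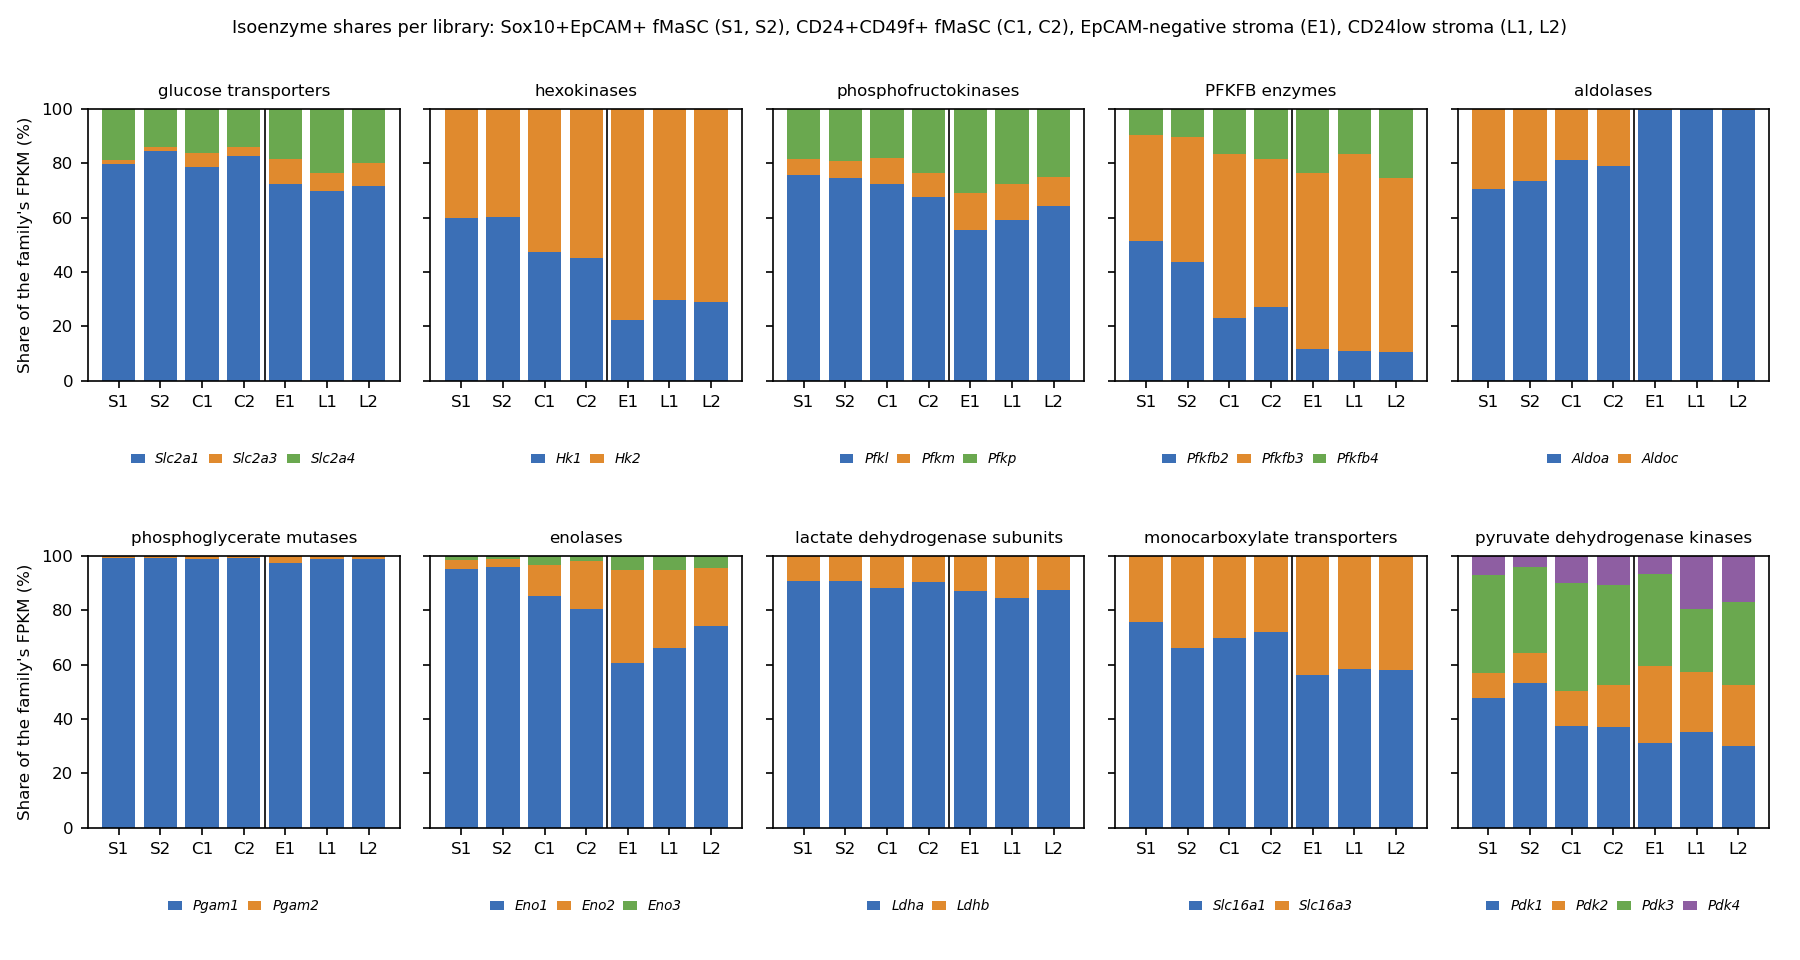
Share of each member isoenzyme in the summed FPKM of its family, in percent, with 1 bar per library and fMaSC left of the black line in each panel. Aldoc takes 18.9% to 29.5% of aldolase in fMaSC and 0.207% to 0.425% in stroma, and the hexokinase bars pass from Hk1 leading in S1 and S2 to Hk2 leading in the rest.

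Within the Sox10 strategy, Sox10+EpCAM+ fMaSC were higher than EpCAM-negative stroma for 9 members and lower for 5 (limma, 26.1% of all genes called, 12.5% higher and 13.6% lower). Higher genes were 47.9% of these calls and 26.8% of those with columns scaled to the same sum. The 9 were Aldoc, Pgk1, Pkm, Eno1, Gapdh, Hif1a, Pfkl, Pdk1 and Pgam1, with log2 folds of 6.32 ± 0.26 for Aldoc and 2.46 ± 0.27 for Pgk1 at the top. The 5 were Eno2 (log2 fold -1.75 ± 0.29), Pfkfb4 (-1.62 ± 0.21), Pfkfb3 (-1.59 ± 0.33), Slc2a3 (-1.02 ± 0.20) and Pdk2 (-0.96 ± 0.24). The stroma side is a single library whose spread is taken from the other groups. The median of all genes moved to -0.63 when columns were scaled to the same sum, with 6 members then called, beside 15.3% of all genes: Aldoc and Pgk1 higher, and Slc2a3, Pfkfb3, Pfkfb4 and Eno2 lower. Without Sox10+EpCAM+ replicate 1 or 2 the count fell to 6 and 7.

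Within the CD24 strategy, CD24+CD49f+ fMaSC were higher than CD24low stroma for 4 members and lower for none (limma, 10.7% of all genes called, 7.78% higher and 2.94% lower). Higher genes were 72.6% of these calls, 52.6% of those with quantile normalization and 56.7% of those with median-ratio scaling. These were Aldoc (log2 fold 4.99 ± 0.21, adjusted p = 0.000356), Pkm (1.74 ± 0.24), Pgk1 (1.10 ± 0.22) and Eno1 (1.04 ± 0.19). Gapdh, at 1.05 ± 0.25, had an adjusted p of 0.0544. With quantile normalization 5 members were higher and 3 lower, beside 855 and 772 of 14418 genes. With median-ratio scaling 3 were higher and 3 lower, beside 970 and 741 of 14418 genes. The lower members were Pfkfb4, Pdk2 and Pdk4 in both. Aldoc alone stayed called under all 15 alternatives, and after scaling to the same sum it was the only member called, beside 3.86% of all genes. Leaving out either Sox10+EpCAM+ replicate left 2 members called, leaving out either CD24low replicate left 1, and leaving out CD24+CD49f+ replicate 2 gave 7.

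**Figure D4:**
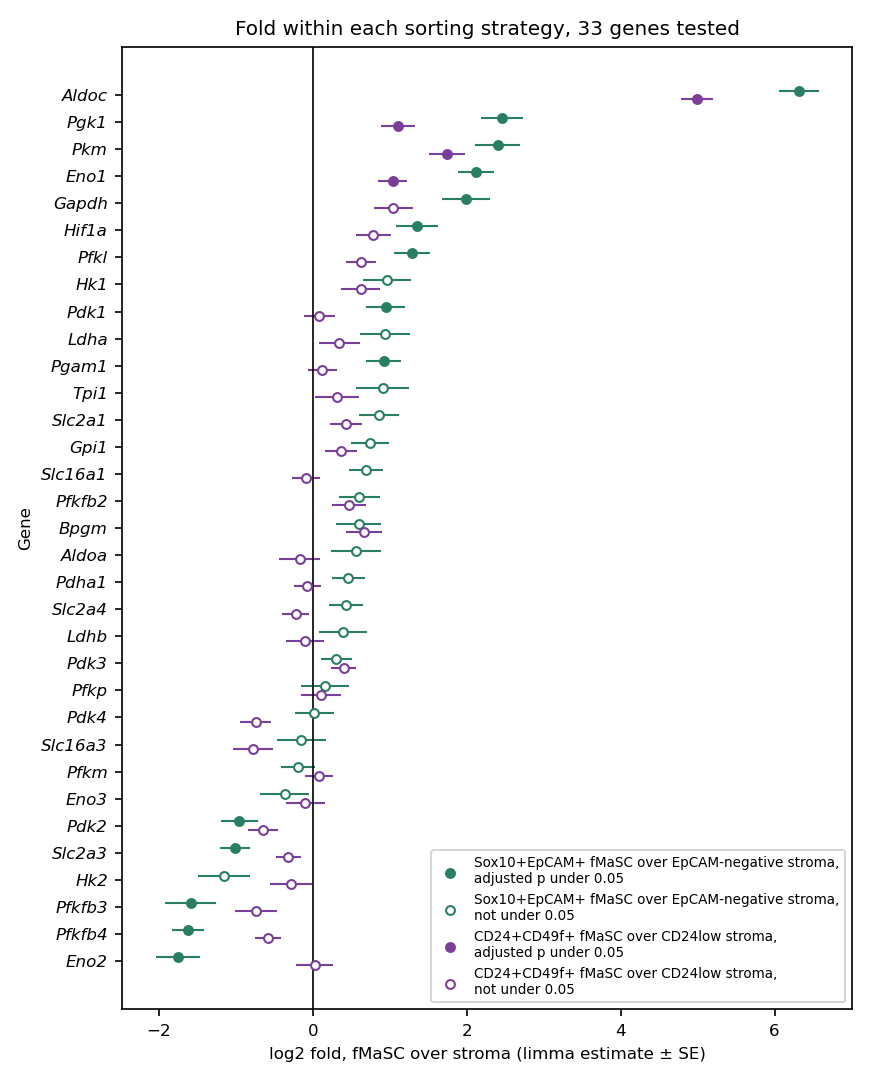
log2 fold of fMaSC over stroma within the Sox10 strategy (green) and within the CD24 strategy (purple) for the 33 genes tested, as limma estimates with SE as bars; filled points have an adjusted p under 0.05. Aldoc leads in both, at 6.32 and 4.99, and Eno2 stands at -1.75 in the Sox10 strategy and 0.02 in the CD24 strategy.

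The fMaSC groups were also compared with each other. Sox10+EpCAM+ fMaSC exceeded CD24+CD49f+ fMaSC for Aldoc (log2 fold 1.17 ± 0.21, adjusted p = 0.0252) and Eno1 (0.88 ± 0.19, adjusted p = 0.0410), and were lower for Eno2 (-1.34 ± 0.24, adjusted p = 0.0227) and Pfkfb4 (-0.78 ± 0.17, adjusted p = 0.0426). That is 4 of 33 members, beside 9.99% of all genes, with 1.95% higher and 8.04% lower. Higher genes were 19.5% of these calls, 2.45% of those with columns scaled to the same sum and 39.2% of those with quantile normalization. No member was called here after scaling to the same sum, beside 3.68% of all genes, nor without either Sox10+EpCAM+ replicate. Without CD24+CD49f+ replicate 2 the count was 1, and without either CD24low replicate it was 2. Fibroblast transcripts moved with these differences: Col1a1 had 9.51 and 16.9 FPKM in Sox10+EpCAM+ fMaSC, against 386 and 883 in CD24+CD49f+ fMaSC, and their part was not tested.

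Whether the fMaSC-to-stroma fold itself differed between the strategies was tested as a contrast of both folds, and limma called no member (1.51% of all genes called). At an unadjusted p under 0.05 there were 9 members, beside 14.6% of all genes. The nearest to the threshold was Eno2, with a difference of -1.78 ± 0.37 on the log2 scale (adjusted p = 0.101). Without CD24+CD49f+ replicate 1 the count of called members was 3. Between the stroma groups, limma called no member either (0.0277% of all genes called), and 2 had an unadjusted p under 0.05, beside 3.02% of all genes. These were Pdk4, with a log2 fold of -1.30 ± 0.25 in EpCAM-negative against CD24low stroma, and Slc16a1, with -0.55 ± 0.22.

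Other genes of sugar handling were sparse or divided. Of 29 further genes of glycolysis and sugar transport, 15 passed the filter, and in all fMaSC against all stroma 3 were called higher and 4 lower, beside 25.1% of all genes called (median log2 fold -0.20, beside 0.12 for all genes). Fbp1, fructose bisphosphatase, which runs the phosphofructokinase step backwards in gluconeogenesis, had 12.4 and 9.39 FPKM in Sox10+EpCAM+ fMaSC and 6.64 and 4.25 in CD24+CD49f+ fMaSC, and was listed at 0 in all 3 stroma libraries. Emb, embigin, a partner of monocarboxylate carriers, had 33.1 and 33.97 FPKM in Sox10+EpCAM+ fMaSC, 24.3 and 22.8 in CD24+CD49f+ fMaSC, 7.48 in EpCAM-negative stroma and 4.32 and 6.04 in CD24low stroma (log2 fold 2.01 ± 0.14). Slc2a9, a urate and hexose transporter, was also higher (log2 fold 1.87 ± 0.24), and Slc2a10 was lower (-1.23 ± 0.33). Fbp1, Emb and Slc2a9 remained called after scaling to the same sum and Slc2a10 did not.

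The hypoxia-inducible factor list of 18 regulators and known targets held 5 called higher and 4 called lower, beside 25.1% of all genes called (median log2 fold 0.16, beside 0.12 for all genes), so its members did not move one way. Ddit4, an inhibitor of mTORC1 signalling, had 142 and 159.9 FPKM in Sox10+EpCAM+ fMaSC, 124 and 98.4 in CD24+CD49f+ fMaSC, 17.7 in EpCAM-negative stroma and 22.3 and 22.0 in CD24low stroma (log2 fold 2.57 ± 0.21). Car9, a membrane carbonic anhydrase, and Ndrg1 were higher too, with log2 folds of 1.67 ± 0.19 for Car9 and 1.45 ± 0.23 for Ndrg1. Hif3a, a related subunit, was lower (log2 fold -1.34 ± 0.39). After scaling to the same sum Ddit4 and Car9 were still called higher and 2 of the 18 were lower, beside 11.1% of all genes called. Of 9 genes of mitochondrial pyruvate use, Pcx, pyruvate carboxylase, was the only gene called. It had 1.64 and 2.00 FPKM in Sox10+EpCAM+ fMaSC, 8.05 and 5.48 in CD24+CD49f+ fMaSC, 22.4 in EpCAM-negative stroma and 27.3 and 20.8 in CD24low stroma (log2 fold -2.24 ± 0.31, adjusted p = 0.00379). The 8 adipocyte markers summed to 14.5 to 21.5 FPKM in Sox10+EpCAM+ fMaSC, 354 to 836 in CD24+CD49f+ fMaSC, 1235 in EpCAM-negative stroma and 1829 to 2208 in CD24low stroma, and their part in the level of Pcx was not tested.

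Hypoxia-inducible factor is known to bind the core letters ACGTG and GCGTG. The sequences upstream of 4 of the 5 members that stayed called after scaling are shown. They come from RefSeq (GRCm38.p6), run 5′ to 3′ on the gene's strand and end at the annotated start, except for Aldoc, where the bases nearest the start lie in an exon annotated in GENCODE vM21 and are left out, and Pkm, which is not shown for the same reason. Capitals mark either core on either strand.
Aldoc, chr11:78322823-78322967, + strand: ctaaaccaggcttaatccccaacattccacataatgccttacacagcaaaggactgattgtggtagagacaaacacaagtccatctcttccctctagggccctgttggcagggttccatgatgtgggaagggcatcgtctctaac
Pgk1, chrX:106186850-106187099, + strand: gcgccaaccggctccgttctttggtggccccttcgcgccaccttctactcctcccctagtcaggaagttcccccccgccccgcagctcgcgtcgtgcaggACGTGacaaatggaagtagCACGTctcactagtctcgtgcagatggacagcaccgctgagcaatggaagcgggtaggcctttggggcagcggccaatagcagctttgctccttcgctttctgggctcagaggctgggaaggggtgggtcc
Gapdh, chr6:125165774-125166023, - strand: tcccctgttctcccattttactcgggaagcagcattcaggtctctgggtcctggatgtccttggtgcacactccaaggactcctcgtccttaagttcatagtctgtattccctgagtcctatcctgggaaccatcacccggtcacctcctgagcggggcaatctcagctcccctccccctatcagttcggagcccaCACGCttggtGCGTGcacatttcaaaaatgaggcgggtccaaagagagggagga
Eno1, chr4:150236458-150236707, + strand: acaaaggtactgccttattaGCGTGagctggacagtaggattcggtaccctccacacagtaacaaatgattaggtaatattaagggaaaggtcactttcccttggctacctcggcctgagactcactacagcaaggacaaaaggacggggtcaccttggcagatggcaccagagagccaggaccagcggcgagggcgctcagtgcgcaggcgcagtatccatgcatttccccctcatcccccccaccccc

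In Pgk1 a pair of cores begins 150 and 131 bases before the start, in Gapdh 54 and 44 bases before it and in the Eno1 promoter shown a single core 230 bases before it. RefSeq lists further starts of Eno1, and their promoters hold cores 86 and 62 bases and 113 and 89 bases before the start. Aldoc holds a GCGTG 50 bases before its start, outside the stretch shown. In the 250 bases before the start, 32 of the 34 members could be matched. Of these 27 (84.4%) held a core in at least 1 of their promoters, beside 41.5% of the 27025 genes in the RefSeq table. The 5 without one were Bpgm, Eno2, Gpi1, Pgam2 and Tpi1. Counted by promoter, 77.1% of 48 held a core, beside 38.6% of 32851. A larger share was foreseeable, since hypoxia-inducible factor is known to raise most of these genes. Both cores contain the letters CG, and the genes compared were matched neither for expression level nor for the base composition of their promoters. The contrast tests no cause. Cores were found in the promoters of genes lower in fMaSC (Pfkfb3, Pfkfb4 and Pdk2) as well as in those of genes higher there. ACGTG and its reverse CACGT overlap where the letters CACGTG occur and were then counted at both positions. A match describes letters and shows no binding, and the part of hypoxia-inducible factor in any difference was not tested.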

How the data were processed

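RNA was sequenced from 7 libraries of sorted fetal mammary cells, with paired ends of 100 bases, per the labels' protocols. The authors deposited 1 table of FPKM per gene. STAR and Cufflinks and the builds GRCm38 and mm10 are named in the submitters' processing notes, and versions, counting strand and the treatment of reads with several matches are not given in the sources used here. The depth behind each value is unknown, so that no counting interval is given. The names of 36664 of 38579 gene entries were matched to GENCODE vM21, and 8 added sequences were left out.

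Genes with at least 1 FPKM in at least 2 libraries were kept (14418 genes, 33 of the 34 members). Differences were tested on log2(FPKM + 1) with limma 3.58.1 in R 4.3.3 with a mean trend and Benjamini-Hochberg adjustment over the genes kept. A fold on this scale understates the change of low genes. Group means left 3 residual degrees of freedom, and the pooled comparison, with cell type and strategy as terms, left 4. The fits were tested on simulated data. Isoenzyme shares are percents of a family's summed FPKM, compared by exact permutation (scipy 1.17.1). Copies were found with BLAST 2.17.0 and figures drawn with matplotlib 3.10.9. All members could be named, and up to 4 called genes of each other list, those with the largest pooled folds. The members and the lists (other glycolysis and sugar transport, pentose phosphate pathway, mitochondrial pyruvate use, tricarboxylic acid cycle, hypoxia-inducible factor, glycogen and cell type markers) were chosen with earlier results of these data known. The alternatives were another pseudocount, other scalings, no filter, no trend, no strategy term, fewer libraries and added copies.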

Additional observations from a re-analysis of the deposited data

How the results depend on the processing

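No result for a member reversed its sign where it was called. With columns scaled to the same sum, the called members numbered 5 in the pooled comparison (1604 genes in all), 6 in the Sox10 strategy (2213), 1 in the CD24 strategy (556) and 0 between the fMaSC groups (531), and 59 genes differed between strategies. Without a filter on low values, which tests more genes, the called members were 2 in the pooled comparison (1601 genes), 9 in the Sox10 strategy and 0 between the fMaSC groups (545). The CD24 strategy then had 445 genes, the stroma groups 763 and the difference between strategies 987. Quantile normalization gave 8 called members in the CD24 strategy (1627 genes), 3 of them lower, and 1 between the fMaSC groups (1342 genes). It gave 104 genes for the difference between strategies, and a pseudocount of 0.1 gave 421 there. With only the 4 libraries compared, so with fewer samples, the CD24 strategy had 2 called members (839 genes) and the fMaSC groups 1 (882). With copies added, chosen after seeing the data, the CD24 strategy had 2 called members (1519 genes). The causes of the scaling, pseudocount and copy effects were not tested. The counts as reported were 3621 genes pooled, 3762 in the Sox10 strategy, 1545 in the CD24 strategy, 1440 between fMaSC groups, 4 between stroma groups and 218 for the difference.

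Leaving out 1 library at a time gave 4 to 15 called members and 1563 to 6374 genes pooled, 6 to 20 and 1674 to 5758 in the Sox10 strategy, 1 to 7 and 426 to 2353 in the CD24 strategy and 0 to 6 and 269 to 2509 between the fMaSC groups. It gave 0 members and 0 to 11 genes between the stroma groups, and 0 to 3 members and 4 to 974 genes for the difference between strategies. Where a group was left with 1 library, that library was assumed to vary like the other groups. No paired analysis was possible because the labels pair no libraries. EpCAM-negative stroma is a single library, reads of near-identical copies were divided in a way not given, and depth is unknown, so that low members such as Slc2a3 and Pfkfb4 carry an unknown counting error.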

Other observations

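Genes next to glycolysis were mostly not called in all fMaSC against all stroma, beside 25.1% of all genes called. Of 10 genes of glycogen metabolism, none was higher and 4 were lower (median log2 fold -0.53, beside 0.12 for all genes), and 3 stayed called with columns scaled to the same sum. Pygl, the liver glycogen phosphorylase, had 1.07 and 2.12 FPKM in Sox10+EpCAM+ fMaSC, 5.43 and 4.34 in CD24+CD49f+ fMaSC, 9.08 in EpCAM-negative stroma and 10.4 and 12.7 in CD24low stroma, with a log2 fold of -1.45 ± 0.25 (limma, adjusted p = 0.00873). Gys1, the muscle glycogen synthase, had a log2 fold of -0.82 ± 0.16 but lost its call with the same sum. Of 7 genes of the pentose phosphate pathway only Pgd was called (log2 fold -0.51 ± 0.13, list median 0.07), and of 16 genes of the tricarboxylic acid cycle only Dlst (log2 fold -0.50 ± 0.13, list median -0.02). Neither kept its call with the same sum, where 1 other gene of the cycle was called lower. The median log2 fold of the 9 genes of mitochondrial pyruvate use was -0.34.

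The sums of the other marker lists were as follows. Skeletal muscle markers summed to 0.690 to 2.15 FPKM in Sox10+EpCAM+ fMaSC, 4.89 to 11.9 in CD24+CD49f+ fMaSC, 19.0 in EpCAM-negative stroma and 14.3 to 19.7 in CD24low stroma. Endothelial markers summed to 8.35 to 8.99 FPKM in Sox10+EpCAM+ fMaSC, 36.4 to 43.3 in CD24+CD49f+ fMaSC, 15.98 in EpCAM-negative stroma and 28.3 to 32.4 in CD24low stroma. Leukocyte markers stayed at 16.2 FPKM or less. Glial and melanoblast markers summed to 132 to 147 FPKM in Sox10+EpCAM+ fMaSC, 162 to 239 in CD24+CD49f+ fMaSC, 5.26 in EpCAM-negative stroma and 14.6 to 16.4 in CD24low stroma. Erythroid markers summed to 91.1 FPKM in EpCAM-negative stroma and 106 to 218 in CD24low stroma.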
